A study of Rattus norvegicus with 17 samples.

Results

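Genes that run mitosis and cytokinesis were followed in rat liver across 4 doses of isopropylated phenol phosphate (IPP), an aryl phosphate used as a flame retardant and plasticizer. The group comprised 36 genes chosen by name, among them the mitotic cyclins, spindle checkpoint kinases, kinetochore and spindle proteins and the cytokinesis machinery. A probe set carrying that symbol and no other was found for 32 of the 36, out of 14217 genes measured in all. The 4 without such a probe set, Anln, Ndc80, Kif4a and Tpx2, are not analysed here. Each gene was read at its brightest probe set.

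RNA came from the left liver lobe of 17 male Harlan Sprague Dawley rats, with 1 array per rat. All rats were dosed by oral gavage once daily for 4 days and killed on day 5. The vehicle group of 5 rats received corn oil alone, and groups of 3 rats received IPP in corn oil at 76.5, 153, 305.5 or 611 mg/kg body weight. The rats differed in no other labelled factor, and no genotype or second agent was involved. The labels do not give the litter or cage, so the p-values below measure the spread between these rats.

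Most cells of the adult liver are hepatocytes that rest outside the cell cycle, and they can re-enter it after tissue loss or exposure to a mitogen. The transcripts of the mitotic machinery then rise together late in the cycle. In resting cells the MuvB core, held with an E2F protein and a pocket protein in the DREAM complex, keeps many of these genes off. In dividing cells the same core joins MYBL2 and FOXM1 and switches them on. It contacts DNA at the cell cycle homology region (CHR), and NF-Y binds CCAAT boxes nearby. DNA replication genes, which rise earlier in the cycle, more often carry E2F sites.

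The promoters below are shown because their genes rose together at 611 mg/kg and hold these letters upstream of the start. They belong to the 4 genes with the smallest p among those that rose and had a CHR match. Sequences are from RefSeq (build GRCr8), written 5′ to 3′ on the gene's own strand. Capitals mark a CHR match (TTTGAA or TTCGAA, read on either strand) or a CCAAT box (CCAAT, read on either strand), so that TTCAAA and ATTGG are the same motifs on the opposite strand. Mki67, the proliferation antigen that coats mitotic chromosomes, had 2 CHR matches within 30 bases (chr1:199952687-199952716, minus strand, 94 to 123 bases before the start). Birc5, the survivin subunit of the chromosomal passenger complex, had its match 3 bases before the start (chr10:103572114-103572143, plus strand). For Mki67 and Birc5 all 250 bases searched lie inside the annotated span of the gene, so the start used is not the outermost one. Ccnb2, a cyclin partner of Cdk1, had 3 CCAAT boxes ahead of a CHR match (chr8:79981696-79981845, minus strand). Cdkn3, a phosphatase that acts on cyclin-dependent kinases, had a CHR match on the opposite strand and 2 CCAAT boxes (chr15:22502179-22502328, plus strand). The 59 bases nearest the start for Ccnb2 and 87 for Cdkn3 also lie inside the gene span, so neither start is the outermost one. The printed CHR match of Ccnb2 and the ATTGG of Cdkn3 lie in those bases.
Mki67: ccagaaTTTGAAccgccgttttcgTTTGAA
Birc5: tgcggcgcgtctccgcccgcgggtTTTGAA
Ccnb2: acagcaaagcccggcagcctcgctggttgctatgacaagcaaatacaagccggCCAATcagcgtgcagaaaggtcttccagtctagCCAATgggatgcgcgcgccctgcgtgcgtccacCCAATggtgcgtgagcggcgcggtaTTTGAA
Cdkn3: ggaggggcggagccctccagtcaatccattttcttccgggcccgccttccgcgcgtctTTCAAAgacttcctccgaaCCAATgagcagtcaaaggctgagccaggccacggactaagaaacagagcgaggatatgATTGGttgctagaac

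These letters were common across the group. Of the 32 measured genes, 28 had a promoter entry, and Ccna2, Ube2c, Aurkb and Racgap1 had none. In the 250 bases upstream of the start, 15 of the 28 (53.6%) held a CHR match, against 12.3% of the 11502 array genes with an entry. A CCAAT box was found in 22 (78.6%), against 35.1% of array genes. At least 2 CCAAT boxes stood in 17 promoters (60.7% against 11.5%), and a CHR match and a CCAAT box together in 14 (50% against 4.6%). In 9 promoters (32.1% against 2.15%) the CHR match lay within 60 bases of the start, the nearest being those of Birc5, Cdk1, Prc1, Cks2 and Top2a. An E2F match (TTTCCCGC, TTTCGCGC, TTTGGCGC or TTTGCCGC, on either strand; none of the motifs contains another) was found in 1 promoter, that of Cdk1 (3.57% against 2.98%). Other mitosis genes, a list taken up below, had 38 promoters, and 20 of them (52.6%) held a CHR match, near the share of the 28. In that list 57.9% held a CCAAT box, 39.5% both and 2.63% an E2F match. A CHR match lay within 60 bases of the start in 31.6%. Of the 33 DNA replication promoters, 5 (15.2%) held a CHR match and 9 (27.3%) an E2F match. A CCAAT box stood in 60.6% of these 33 and at least 2 in 30.3%, so CCAAT boxes were frequent there too. Of the 22 genes with an entry that were called higher at 611 mg/kg, 11 held a CHR match, as did 4 of the 6 uncalled genes with an entry, Bub1b, Cdc20, Kif23 and Top2a. A match describes letters in this window, not a site or a cause.

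**Figure D1:**
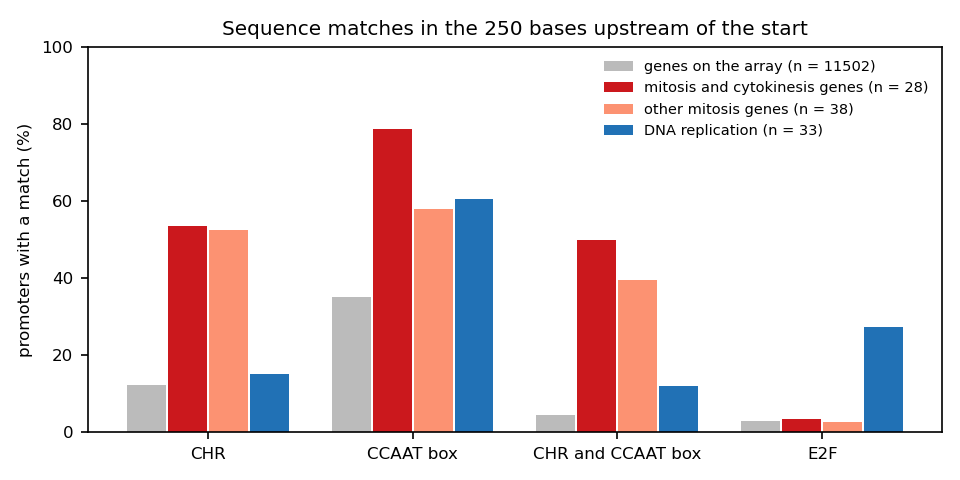
Share of promoters (percent, vertical axis) with a match to the CHR, the CCAAT box, both or an E2F motif (horizontal axis) in the 250 bases upstream of the start; bars are genes on the array, the mitosis and cytokinesis genes, other mitosis genes and DNA replication genes with a RefSeq promoter entry. CHR matches stand at 53.6% in the mitosis and cytokinesis genes, 52.6% in other mitosis genes, 15.2% in the replication genes and 12.3% in array genes. E2F matches stand at 3.57%, 2.63%, 27.3% and 2.98% in the same order.

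Values are log2 signals as deposited. Over all genes the median level was 7.52, and 26.0% of genes had a mean under log2 6. Array signal flattens near background, so differences of genes below that line are read as lower bounds. Vehicle means lay under log2 6 for 14 of the 32 genes. Hepatocyte markers, read to check the tissue label, were bright, with a mean log2 level of 13.5 to 13.7 in rats at 611 mg/kg and 13.6 to 13.7 in vehicle rats. Rat 2 at 611 mg/kg stood apart: its 3' minus 5' difference of the GAPDH control probe sets, which grows as RNA degrades, was 2.89, against 0.93 to 1.56 in the other 16 rats. The same rat had the lowest median correlation with the other arrays (0.984). Counts of called genes at 611 mg/kg are therefore given with and without it. Each difference is the mean log2 level at a dose minus that of the vehicle rats, with the SE that limma gave in a model of the 17 rats (n = 3 per dose, n = 5 for vehicle). A gene is called where the Benjamini-Hochberg adjusted p over all 14217 genes is under 0.05. All doses were set against the same 5 vehicle rats.

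At the 3 lower doses the mitosis genes lay at or slightly under the vehicle level. None of the 32 mitosis genes was called in either direction by limma at 76.5 mg/kg, where 0.141% of all genes were called higher and 0.127% lower. None was called at 153 mg/kg (0.408% and 0.338% of all genes) or at 305.5 mg/kg (0.753% and 1.47%). At an unadjusted p under 0.05, limma placed 0 mitosis genes higher at all 3 doses, and 1 lower at 76.5, 0 at 153 and 1 at 305.5 mg/kg. Of all genes, 5.56%, 7.44% and 5.73% were higher and 5.18%, 4.43% and 7.77% lower at that threshold. The median difference over the 32 genes was -0.14 at 76.5, -0.11 at 153 and -0.11 at 305.5 mg/kg, against 0.01 over all genes at each dose. Differences were below 0 for 26, 25 and 24 of the 32 genes. The vehicle rats themselves were spread more widely than this. Averaged over the 32 genes, their offsets from the vehicle mean were 0.07, 0.29, 0.13, -0.37 and -0.12 in rats 1 to 5, and the 9 rats of the lower doses lay between -0.28 and 0.05. Rat 4 was the lowest vehicle rat in 25 of the genes and rat 2 the highest in 23. Without vehicle rat 2 the median at 76.5 mg/kg was -0.05, and without vehicle rat 4 it was -0.21. With array weights, which favour the arrays closest to the fit, Spc25 (-0.55), Aurkb (-0.61) and Cdca8 (-0.36) were called lower at 76.5 mg/kg, at adjusted p of 0.0477, 0.0103 and 0.0482, as were 2.34% of all genes.

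At 611 mg/kg, 25 of the 32 mitosis genes (78.1%) rose and none fell, against 5.04% of all genes called higher and 2.42% called lower. The called rises ran from 0.45 to 2.34 on the log2 scale, and 14 of them were 1 or more. At an unadjusted p under 0.05, limma placed 30 higher and 0 lower, against 14.5% and 9.66% of all genes. Over all 32 genes the median difference was 0.87, against -0.0029 over all genes. All 3 rats at 611 mg/kg lay above all 5 vehicle rats in 21 of the 32 genes (65.6%), which 11.5% of all genes did. In 20 genes (62.5%) they lay above all 14 other rats, which 1.49% of all genes did. Without rat 2 the limma fit called 27 mitosis genes higher, all 25 of the first count among them, and 1.81% of all genes. Without rat 1, 17 were called, against 5.05% of all genes. Array signal from whole liver cannot tell more cells in mitosis from more RNA per cell.

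**Figure D2:**
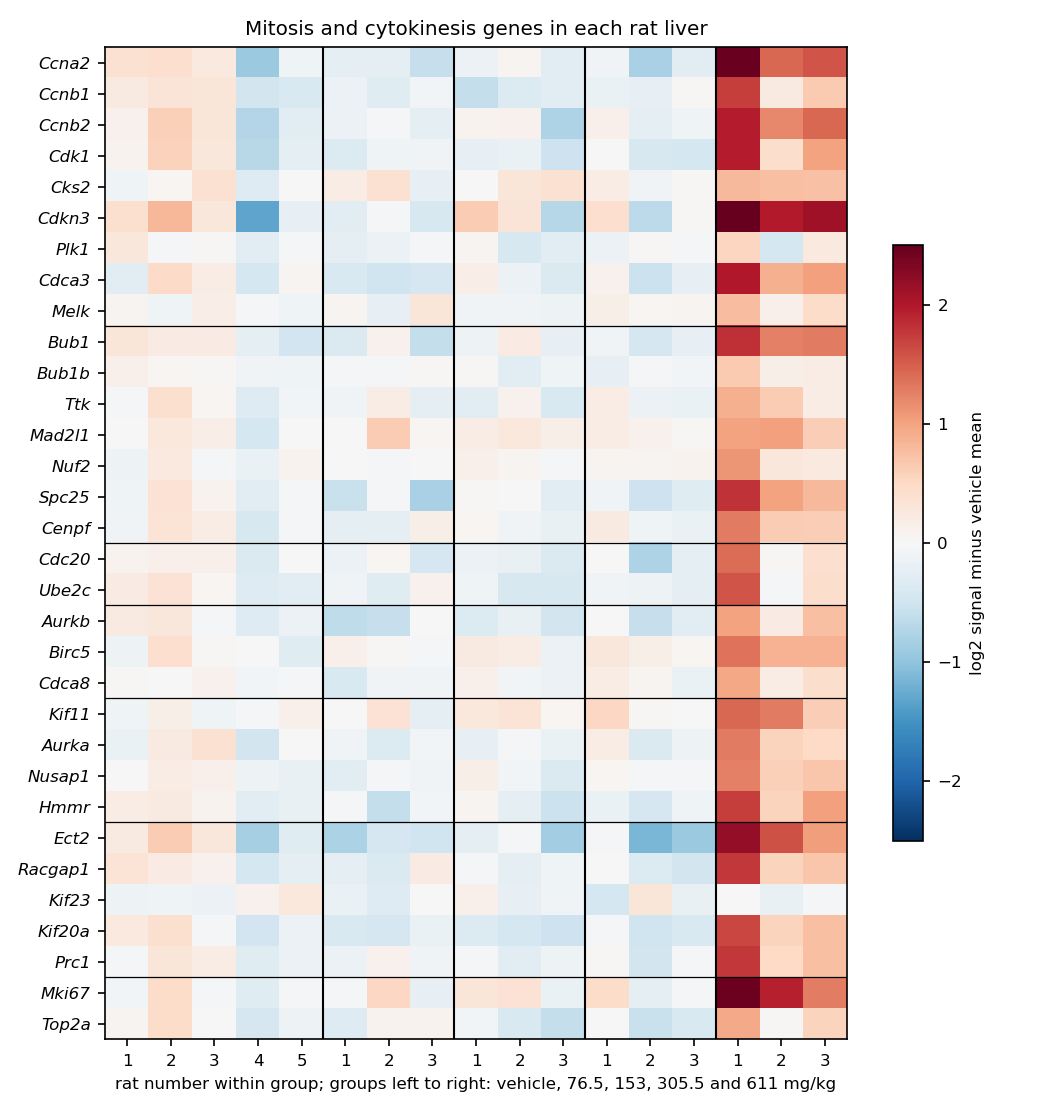
Heat map of the 32 mitosis genes (rows, grouped by role) in the 17 rats (columns, grouped by dose in mg/kg), coloured by the log2 signal minus the vehicle mean of that gene; values past the scale take its end colour. The 3 columns at 611 mg/kg stand above the other 14 in most rows, rat 1 most, while Kif23 does not follow and Plk1 is below the vehicle mean in rat 2.

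The cyclin and kinase engine that drives cells into mitosis gave 8 rises among its 9 genes, with a median difference of 1.13. Cdkn3 had the largest rise of the group. Its log2 levels were 7.59, 8.01, 7.48, 5.88 and 6.98 in vehicle rats 1 to 5 and 10.10, 9.18 and 9.30 in rats 1 to 3 at 611 mg/kg. The 9 lower-dose rats ran from 6.48 to 7.83 with a median of 7.17, so the top-dose rats lay above all others. The difference was 2.34 ± 0.39, 5.06-fold (limma adjusted p = 0.00199). Ccna2, the cyclin that acts in S phase and at mitotic entry, followed among the engine genes. It was measured at 5.44, 5.48, 5.30, 4.13 and 4.96 in vehicle rats, at 4.26 to 5.12 with a median of 4.83 in lower-dose rats, and at 7.54, 6.49 and 6.63 at 611 mg/kg. The top-dose rats were again clear of every other rat, and the difference was 1.83 ± 0.27 (adjusted p = 0.000836). Ccnb2 stood at 6.98, 7.47, 7.17, 6.14 and 6.59 in vehicle rats, at 6.10 to 6.99 at the lower doses and at 8.83, 8.07 and 8.31 at 611 mg/kg. Its rise was 1.53 ± 0.26 (adjusted p = 0.0019), with no overlap between the top dose and the rest.

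Cdca3, a trigger of mitotic entry that marks an inhibitory kinase for destruction, gave 7.05, 7.79, 7.50, 6.88 and 7.38 in vehicle rats and 9.32, 8.20 and 8.35 at 611 mg/kg. The rise was 1.30 ± 0.23 (adjusted p = 0.00336) and the groups did not overlap. Cdk1, the kinase at the centre of mitotic entry, overlapped: rat 2 at 611 mg/kg (6.94) lay below vehicle rat 2 (7.08), while rats 1 and 3 stood at 8.46 and 7.50. Its difference was 1.13 ± 0.28 (adjusted p = 0.02) with rat 2 and 1.48 without it. Cks2, a small Cdk1-binding subunit, had the most even response of the engine genes, at 9.28, 9.22 and 9.21 at 611 mg/kg against 8.15 to 8.84 in vehicle rats, a rise of 0.77 ± 0.15 (adjusted p = 0.0057). Ccnb1, the main Cdk1 cyclin, stood at 7.59, 6.08 and 6.50 against 5.40 to 6.18 in vehicle rats, so rat 2 lay inside the vehicle range. Its call (0.87 ± 0.25, adjusted p = 0.044) was lost under 17 of 28 other settings. Melk, a kinase of dividing and stem-like cells, gave 5.34, 4.70 and 5.02 against 4.46 to 4.74, with rat 2 again inside, and its call (0.45 ± 0.12, adjusted p = 0.0336) was lost under 9.

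Plk1, the polo kinase needed from mitotic entry to exit, was the engine gene not called. Vehicle rats had 7.70, 7.38, 7.45, 7.15 and 7.38, and the rats at 611 mg/kg 7.94, 6.97 and 7.66. The difference was 0.11 ± 0.17 (adjusted p = 0.719), 0.39 without rat 2 (adjusted p = 0.165) and -0.09 without rat 1. All 17 values of Plk1 lay above the log2 6 line.

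**Figure D3:**
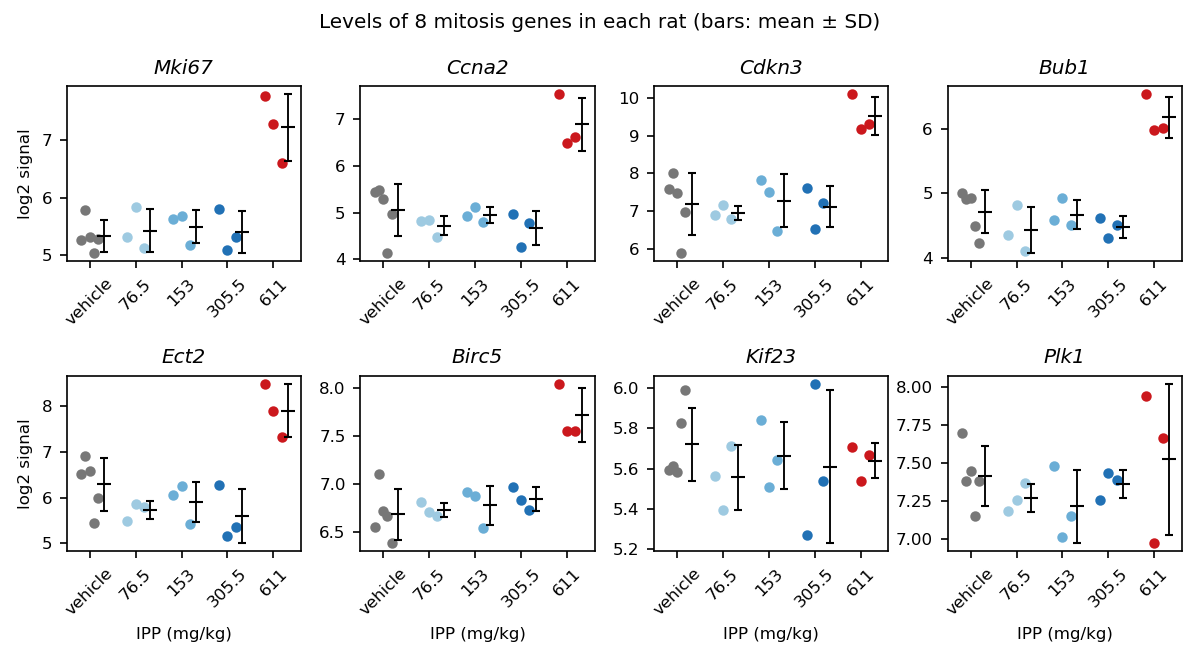
Log2 signal (vertical axes, a separate scale for each gene) of Mki67, Ccna2, Cdkn3, Bub1, Ect2, Birc5, Kif23 and Plk1 by group, vehicle and IPP dose in mg/kg (horizontal axes); points are rats, and bars are the group mean ± SD. In the first 6 genes all 3 rats at 611 mg/kg lie above the other 14 rats, and in Kif23 and Plk1 they overlap them.

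Of the 7 genes of the spindle checkpoint and the kinetochore, 5 rose, with a median of 0.85 over the 7. Bub1, the checkpoint kinase that marks kinetochores for shugoshin, gave 5.01, 4.92, 4.93, 4.49 and 4.24 in vehicle rats, 4.11 to 4.93 with a median of 4.51 at the lower doses, and 6.54, 5.98 and 6.01 at 611 mg/kg. The top-dose rats lay above all others, and the difference was 1.46 ± 0.19 (adjusted p = 0.000278). Spc25, part of the Ndc80 complex that grips microtubules, rose by 1.21 ± 0.21 (adjusted p = 0.00224), from 6.22 to 6.86 in vehicle rats to 8.31, 7.51 and 7.32. Mad2l1, the protein that holds back anaphase, was the 1 gene in which rat 2 was the highest at 611 mg/kg (6.60, 6.62 and 6.22). Vehicle rats stood at 5.17 to 5.86 and the rise was 0.88 ± 0.15 (adjusted p = 0.00287). At the lower doses Mad2l1 reached 6.24, just above rat 3 at 611 mg/kg.

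Cenpf, a large kinetochore and nuclear matrix protein, stood at 7.00, 6.32 and 6.32 against 5.29 to 6.04, a rise of 0.85 ± 0.17 (adjusted p = 0.00723). Nuf2, the partner of Ndc80, rested mostly on rat 1: its values were 7.87, 7.06 and 7.00 against a vehicle range of 6.60 to 7.01, and its call (0.54 ± 0.15, adjusted p = 0.0351) was lost under 8 of the other settings. Bub1b and Ttk, checkpoint kinases that sit beside Bub1, were not called. In Bub1b all 3 top-dose rats (5.82, 5.32 and 5.35) lay above the highest vehicle rat (5.29), by little in rats 2 and 3, and the difference was 0.33 ± 0.11 (adjusted p = 0.0656). Ttk gave 5.46, 5.21 and 4.75 against 4.25 to 4.97, with an adjusted p of 0.0501.

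Cdc20 and Ube2c, the activator and the ubiquitin-conjugating enzyme of the anaphase-promoting complex, were both uncalled over all 17 rats and both called without rat 2. Cdc20 was 8.29, 6.91 and 7.31 at 611 mg/kg against 6.98, 7.02, 7.01, 6.53 and 6.89 in vehicle rats. Ube2c was 8.30, 6.71 and 7.18 against 6.93, 7.09, 6.79, 6.41 and 6.46. In both genes rat 2 fell inside the vehicle range and rats 1 and 3 above it. The differences were 0.62 ± 0.23 for Cdc20 (adjusted p = 0.118) and 0.66 ± 0.25 for Ube2c (adjusted p = 0.112). Without rat 2 they were 0.91 (adjusted p = 0.0408) and 1.01 (adjusted p = 0.0275).

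All 3 measured genes of the chromosomal passenger complex, which corrects faulty attachments and later moves to the midzone, rose. Birc5 gave 6.55, 7.10, 6.72, 6.67 and 6.38 in vehicle rats, 6.54 to 6.97 at the lower doses and 8.05, 7.55 and 7.56 at 611 mg/kg. Its rise of 1.04 ± 0.15 (adjusted p = 0.000625) was clear of every other rat. Cdca8, the borealin subunit, rose by 0.53 ± 0.14 (adjusted p = 0.0257), to 7.12, 6.34 and 6.60 from 6.08 to 6.26. At the lower doses Cdca8 reached 6.34, level with rat 2. Aurkb, the kinase of the complex, was 6.13, 5.33 and 5.89 against 4.80 to 5.41, and rat 2 overlapped the vehicle rats. Its call (0.66 ± 0.19, adjusted p = 0.0425) was lost under 13 of the other settings.

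The 4 spindle motor and assembly genes all rose, with a median of 0.97. Kif11, the kinesin that pushes spindle poles apart, was 7.28, 7.15 and 6.47 against 5.746 to 6.003 in vehicle rats (1.11 ± 0.17, adjusted p = 0.00114). Hmmr, a microtubule-binding protein of the spindle poles, was 7.55, 6.37 and 6.86 against 5.54 to 6.05 (1.10 ± 0.21, adjusted p = 0.0057). Nusap1, which bundles spindle microtubules, was 8.30, 7.64 and 7.74 against 6.86 to 7.24 (0.85 ± 0.14, adjusted p = 0.00191). Aurka, the centrosomal aurora kinase, was 7.38, 6.62 and 6.57 against 5.61 to 6.46 (0.78 ± 0.19, adjusted p = 0.0195). No vehicle rat reached a top-dose rat in any of the 4.

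Among the 5 central spindle and cytokinesis genes, 4 rose. Ect2, the exchange factor that activates RhoA at the cleavage furrow, had the largest rise of these. It was 6.51, 6.92, 6.58, 5.46 and 5.99 in vehicle rats, 5.16 to 6.27 with a median of 5.80 at the lower doses and 8.49, 7.89 and 7.34 at 611 mg/kg. The difference was 1.61 ± 0.32 (adjusted p = 0.0065), with all top-dose rats above all others. Racgap1, which joins Ect2 to the midzone, was 7.66, 6.45 and 6.58 against 5.44 to 6.22 (1.01 ± 0.23, adjusted p = 0.014). Prc1, the bundler of midzone microtubules, was 8.63, 7.37 and 7.62 against 6.56 to 7.16 (1.01 ± 0.21, adjusted p = 0.00902). Kif20a, a midzone kinesin, was 8.62, 7.52 and 7.71 against 6.47 to 7.36 (0.997 ± 0.21, adjusted p = 0.00942). In these last 3 rat 2 was the lowest of the top dose and still above every vehicle rat.

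Kif23, the kinesin partner of Racgap1 in centralspindlin, was the only one of the 32 genes with a difference below 0 at 611 mg/kg, and its 2 probe sets disagreed. The brighter probe set read 5.71, 5.54 and 5.67 at 611 mg/kg against 5.58 to 5.99 in vehicle rats (-0.08 ± 0.14, adjusted p = 0.763). In a fit over all probe sets, the second probe set rose by 0.92 ± 0.13 (adjusted p = 0.000593), and the mean of both rose by 0.42 (adjusted p = 0.0113). The rise of Kif23 therefore depended on the probe set. In the same fit the second probe sets of Kif11 (0.08), Hmmr (0.13), Racgap1 (0.19) and Nusap1 (0.67, adjusted p = 0.135) were not called, though these genes were. The second probe set of Ccnb1 rose by 1.40 (adjusted p = 0.00902).

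Mki67 and Top2a, the proliferation antigen and the topoisomerase that untangles sister chromatids, differed. Mki67 was 5.26, 5.79, 5.31, 5.03 and 5.28 in vehicle rats, 5.09 to 5.85 with a median of 5.31 at the lower doses and 7.78, 7.28 and 6.62 at 611 mg/kg. Its rise of 1.89 ± 0.24 (adjusted p = 0.000204) had the smallest p of the group and was clear of every other rat, while the lower-dose range nearly matched the vehicle range. Top2a was 7.61, 6.68 and 7.22 at 611 mg/kg against 6.25 to 7.12, so rat 2 fell inside the vehicle range. The difference was 0.51 ± 0.21 (adjusted p = 0.141), and 0.76 (adjusted p = 0.0629) without rat 2.

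**Figure D4:**
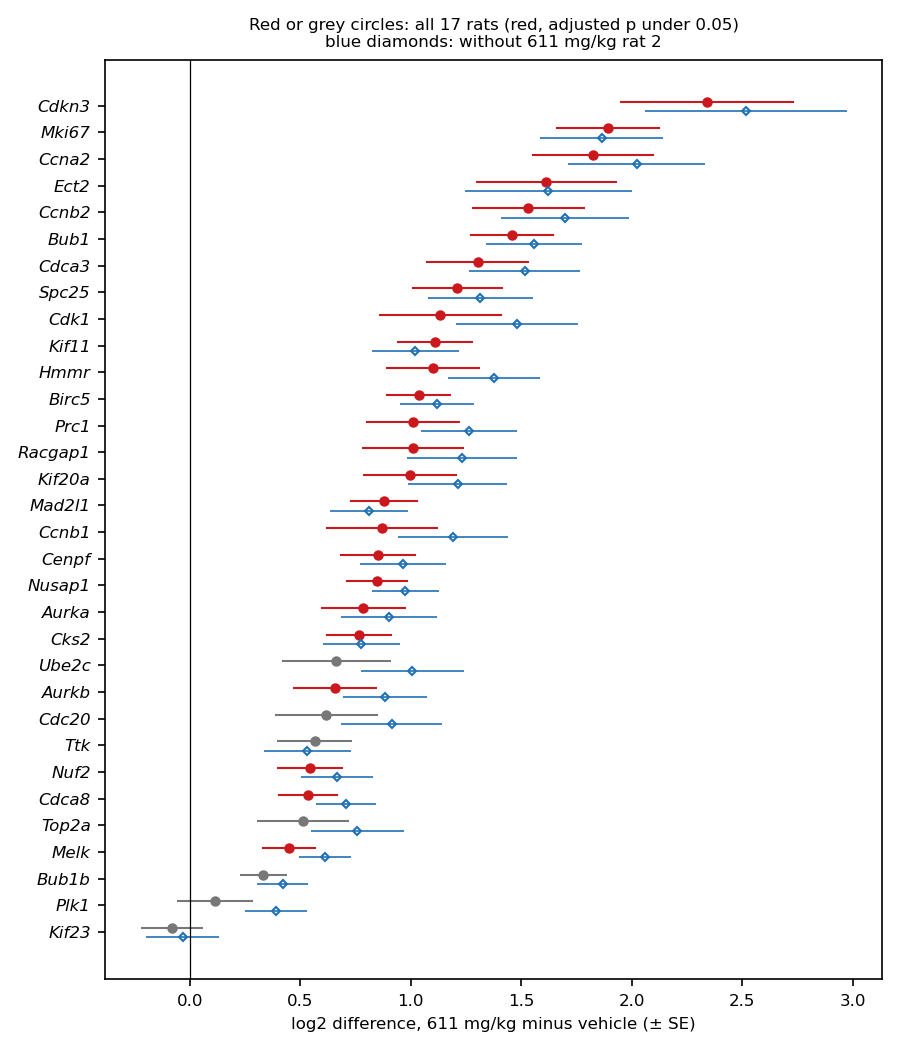
Log2 difference at 611 mg/kg minus vehicle (horizontal axis) for each of the 32 mitosis genes (vertical axis, by size), with all 17 rats (circles, red where called) and without rat 2 at 611 mg/kg (diamonds); lines are ± SE of the limma fit. Differences over all rats run from -0.08 for Kif23 to 2.34 for Cdkn3, and they are larger without rat 2 except for Mki67, Kif11, Mad2l1 and Ttk.

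The 3 rats at 611 mg/kg did not respond equally. Averaged over the 32 genes, rat 1 lay 1.45 above the vehicle mean, rat 2 0.65 and rat 3 0.75. Rat 1 was the highest of the 3 in 31 genes and rat 2 the lowest in 22. Above all 14 rats outside the top dose lay rat 1 in 31 genes, rat 2 in 23 and rat 3 in 27. The share of all genes in which a single rat did so was not counted, so these counts only describe the 3 rats. Rat 2 had the highest GAPDH difference and a moderate mitotic level, whereas rat 1, with the highest mitotic level, had a GAPDH difference of 1.17, inside the range of the other rats. The part of RNA quality in the level of rat 2 was not tested.

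The step from 305.5 to 611 mg/kg was tested directly in the same fit. Of the 32 genes, 15 (46.9%) were called higher and none lower, against 0.288% and 0.0352% of all genes, and at an unadjusted p under 0.05 limma placed 30 higher and 0 lower, against 9.3% and 6.75%. These 15 made up 36.6% of the 41 genes called higher on that step, and 10 more of the 41 came from the list of other mitosis genes. All 3 rats at 611 mg/kg lay above all 3 at 305.5 mg/kg in 28 of the 32 genes, which 11.2% of all genes did. The largest step differences were those of Cdkn3 (2.41 ± 0.44, adjusted p = 0.0225), Ect2 (2.31 ± 0.36, adjusted p = 0.0066), Ccna2 (2.22 ± 0.31, adjusted p = 0.00388), Mki67 (1.83 ± 0.27, adjusted p = 0.00475) and Bub1 (1.70 ± 0.21, adjusted p = 0.00214). The other 10 were Ccnb2, Cdca3, Spc25, Birc5, Kif11, Nusap1, Hmmr, Racgap1, Kif20a and Prc1. Both comparisons with 611 mg/kg share its 3 rats, so the step is not separate support for the rise over vehicle. Without rat 2 at 611 mg/kg the step count was 16, against 0.232% of all genes. It was 3 without rat 2 at 305.5 mg/kg, where only 10 of all 14217 genes were called higher. The step count was 4 without rat 3 at 305.5 mg/kg, 8 without rat 1 at 611 mg/kg, and 4 in a fit of the 6 rats alone. Over all settings run, 10 to 259 of all genes were called higher on the step.

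A slope over the rank of the dose group (0 to 4) called 6 mitosis genes higher and none lower, against 3.96% and 2.78% of all genes: Cks2, Cdkn3, Mad2l1, Birc5, Kif11 and Mki67. At an unadjusted p under 0.05, limma placed 22 higher and 0 lower, against 12.5% and 8.81% of all genes. A slope over the dose in mg/kg, which weights the top dose more, called 22, against 3.5% of all genes, and the rank slope without the 611 mg/kg group called 0 (limma, with 0 higher and 4 lower at an unadjusted p under 0.05). The rank count was 12 and 10 without rats 2 and 3 at 305.5 mg/kg, 2 without any rat at 611 mg/kg, and 3 without vehicle rat 4 or 5.

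Further mitosis genes were listed from the same pathways. Of 45 measured, 17 rose, 2 fell and 26 were not called at 611 mg/kg, against 5.04% of all genes called higher and 2.42% lower. The median was 0.33. At 76.5 and at 153 mg/kg 1 of the 45 was called higher, and at 305.5 mg/kg 0. Of all genes, 0.141%, 0.408% and 0.753% were called higher at these doses. In the run without the dimmest 40% of genes, which tested 8531 genes, 3 were called higher. How many of the 45 that run kept was not counted, so the 3 does not show how many calls were lost. In the fit over all genes, the risen genes with the smallest p were Depdc1, Cenpw, Spc24, Arhgap11a, Kif15 and Cenpk. Spc24, the direct partner of Spc25, stood at 7.41, 7.37, 7.41, 7.09 and 7.23 in vehicle rats and 9.02, 8.34 and 8.47 at 611 mg/kg, a rise of 1.31 ± 0.17 (adjusted p = 0.000211). Depdc1 rose by 1.14 ± 0.14 (adjusted p = 0.000158), and Cenpw, a centromere histone-fold protein, by 1.15 ± 0.14 (adjusted p = 0.000178). Arhgap11a, a RhoGAP, rose by 1.21 ± 0.17 (adjusted p = 0.000545), Kif15, a spindle kinesin, by 0.69 ± 0.11 (adjusted p = 0.00116) and Cenpk, a kinetochore protein, by 0.83 ± 0.13 (adjusted p = 0.00132). The 2 that fell, named after their values were seen, were Cit, the citron kinase of the midbody, at -0.42 ± 0.11 (adjusted p = 0.0235), and Cdc25b, a Cdk1-activating phosphatase, at -0.82 ± 0.22 (adjusted p = 0.0347). Neither kept that call without rat 2, where the differences were -0.35 (adjusted p = 0.126) and -0.75 (adjusted p = 0.146). In that fit 18 genes of this list rose, against 1.81% of all genes.

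DNA replication genes had 4 rises among 37, against 5.04% of all genes, and a median of 0.15; without rat 2 the count was also 4. The 4 were Rrm1, a ribonucleotide reductase subunit (0.67 ± 0.11, adjusted p = 0.00132), Prim1, a primase subunit (0.61 ± 0.12, adjusted p = 0.00723), Tk1, thymidine kinase (0.52 ± 0.10, adjusted p = 0.00539), and Pola1, the polymerase alpha catalytic subunit (0.41 ± 0.11, adjusted p = 0.0291). The helicase subunits Mcm2 (0.19, adjusted p = 0.215) and Mcm6 (0.44, adjusted p = 0.0801) and the sliding clamp Pcna (0.19, adjusted p = 0.349) were not called. At an unadjusted p under 0.05, 14 replication genes were higher and 1 lower, against 14.5% and 9.66% of all genes. The difference between the mitosis and replication lists was not tested.

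Among 14 regulators of mitotic transcription, 3 rose, against 5.04% of all genes: Lin9 (0.73 ± 0.14, adjusted p = 0.00539) and Lin54 (0.60 ± 0.16, adjusted p = 0.0282), subunits of MuvB, and Rbl1, the pocket protein p107 (0.55 ± 0.16, adjusted p = 0.0481). Without rat 2 the count was 1, against 1.81% of all genes. The transcripts of the activators showed no called change: Foxm1 differed by 0.15 ± 0.14 (adjusted p = 0.549), Mybl2 by -0.17 ± 0.10 (adjusted p = 0.32) and E2f1 by 0.06 ± 0.14 (adjusted p = 0.816). Foxm1 and E2f1 turned below 0 without rat 1 at 611 mg/kg. Messenger level does not give the activity of these factors.

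Cdkn1a, the CDK inhibitor best known as a p53 target, followed another dose pattern. It was 10.95, 11.32, 10.92, 11.49 and 10.16 in vehicle rats, and 8.64, 8.21 and 10.49 at 76.5 mg/kg, where rat 3 lay among the vehicle rats. At 153 mg/kg it was 8.47, 8.06 and 8.70, at 305.5 mg/kg 8.23, 8.34 and 8.24, and at 611 mg/kg 8.55, 8.46 and 8.34. Every rat from 153 mg/kg upward lay below every vehicle rat. The differences were -1.86 (adjusted p = 0.0384), -2.56 (adjusted p = 0.00213), -2.70 (adjusted p = 0.000738) and -2.52 (adjusted p = 0.000696) at the 4 doses, and between 611 and 305.5 mg/kg 0.18 ± 0.41 (adjusted p = 0.852). The call at 76.5 mg/kg was lost under 20 of 29 other settings, among them without 76.5 mg/kg rat 2 (-1.40, adjusted p = 0.196). Cdkn1a was thus low at 153 and 305.5 mg/kg, where none of the 32 mitosis genes was called higher. A link between its level and the mitosis genes was not tested. Of the 12 G1 regulators and CDK inhibitors, Cdkn2c (0.63 ± 0.11, adjusted p = 0.00403) and Cdkn1b (0.32 ± 0.08, adjusted p = 0.0219) rose at 611 mg/kg and Cdkn1a alone fell. Of all genes, 5.04% were called higher and 2.42% lower. Without rat 2, 1 of both rises was called, against 1.81% of all genes. Ccnd1, the cyclin of growth factor response, was not called (-0.09 ± 0.49, adjusted p = 0.929), with a sign that turned under 4 settings. None of 13 growth signal genes was called by limma in either direction at any dose. At 611 mg/kg 0 had an unadjusted p under 0.05, against 14.5% of all genes higher and 9.66% lower. At 76.5, 153 and 305.5 mg/kg 0 were higher and 4, 1 and 3 lower at that limma threshold. Of all genes, 5.18%, 4.43% and 7.77% were lower at these doses.

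**Figure D5:**
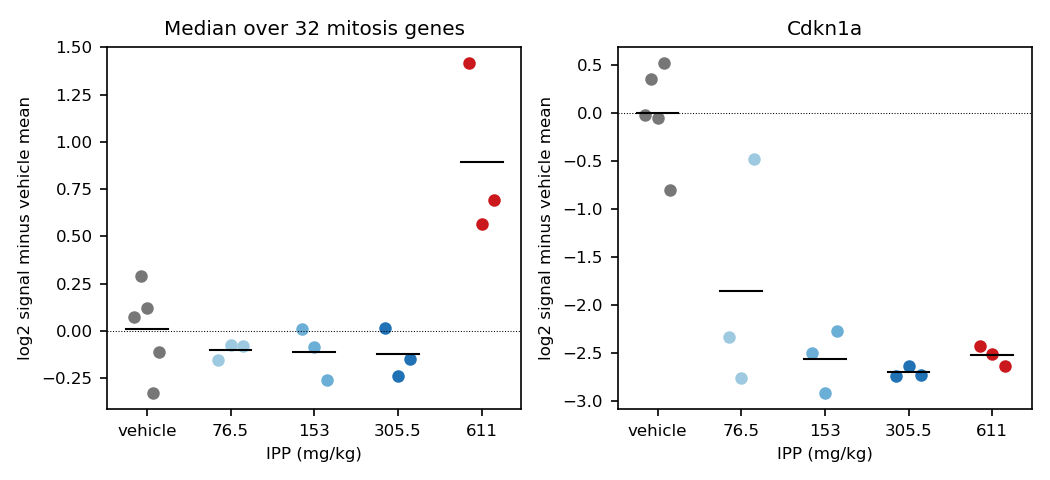
Log2 signal minus the vehicle mean (vertical axes), as the median over the 32 mitosis genes (left) and for Cdkn1a (right), by vehicle and IPP dose in mg/kg (horizontal axes); points are rats and lines group means. The mitosis median lies between -0.26 and 0.02 in the rats from 76.5 to 305.5 mg/kg, inside the vehicle spread of -0.33 to 0.29, and at 1.41, 0.56 and 0.69 in the rats at 611 mg/kg, while Cdkn1a is low in every rat from 153 mg/kg upward.

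Markers of liver cell types were read in the same rats, since cells other than hepatocytes also divide. At 611 mg/kg, 5.04% of all genes were called higher and 2.42% lower, the shares to read beside each list here. None of 10 hepatocyte markers was called, and their summed linear signal was 176237 to 188844, against 185662 to 189578 in vehicle rats. Endothelial markers were called lower in 5 of 6, against 2.42% of all genes, among them Pecam1 at -0.38 and Stab2 at -0.91. Their sum was 2912 to 3132 against 4304 to 5136. Without rat 2, 4 endothelial markers were called lower, against 169 of all 14217 genes. Without rat 1, 3 endothelial and 3 macrophage markers were called lower. The all-gene count of that run is not given here, and over all settings run it lay between 169 and 678. Erythroid precursor markers, whose cells cycle rapidly, were called lower for 2 of 7, against 2.42% of all genes. They were Alas2 (-1.34 ± 0.23, adjusted p = 0.0028) and Tfrc (-0.72 ± 0.15, adjusted p = 0.00723), with 2 calls also without rat 2. The list summed to 1287 to 1499 against 1904 to 2861. Tfrc was the brightest of the 7, at 10.27 to 11.08 in vehicle rats against at most 8.46 for Alas2. The sum therefore mostly follows Tfrc and is no count of precursor cells. None of 8 macrophage markers (sum 7736 to 10789 against 7953 to 12525), 6 lymphocyte markers (293 to 312 against 327 to 363) or 4 neutrophil markers (175 to 320 against 199 to 386) was called by limma. At an unadjusted p under 0.05 in limma, 5 macrophage, 3 lymphocyte and 0 neutrophil markers were lower and none higher, against 9.66% and 14.5% of all genes. No marker of hepatocytes or of these 3 lists was called without rat 2 either. Of 8 stellate markers Pdgfrb fell (-0.80), with a sum of 3302 to 4505 against 4254 to 5545. Leaving out rat 1 or rat 2 called 2 stellate markers lower, beside the same 169 to 678 of all genes. Of 5 cholangiocyte markers Epcam rose (0.72 ± 0.17, adjusted p = 0.0167) and Krt7 fell (-0.43, adjusted p = 0.0332), with a sum of 1022 to 1499 against 734 to 933. Both cholangiocyte calls were absent without rat 2. The median over the 5 was -0.06, and the mean log2 level (6.57 to 6.63) lay inside the vehicle range (6.39 to 6.69). Epcam was the brightest of the 5, with a vehicle mean of log2 9.19 against 6.52 for Spp1, the next. The cholangiocyte sum therefore mostly follows Epcam and is no count of cholangiocytes. Cholangiocyte sums were also 882 to 1133 at 76.5 and 955 to 1098 at 153 mg/kg. At those doses none of the 32 mitosis genes was called higher. A link between cholangiocyte content and the mitosis genes was not tested.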

How the data were processed

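The deposited values are log2 signals per probe set that the authors made with RMA, per the submitters' processing notes; its version is not given in the sources used here. Of 31099 probe sets, 20826 carried 1 symbol, 436 several and 9780 none in the platform annotation of 2016, and 57 were controls. Each of 14217 genes was read at its brightest probe set, a choice for 4525. All genes entered the model, fitted with limma 3.58.1 under R 4.3.3 (5 groups as a factor, eBayes with trend, Benjamini-Hochberg over all genes), a procedure tested on simulated data. The number of arrays limits the precision. Alternatives covered probe sets, filters, normalization, weights, variance priors, thresholds, a replicate block and leaving out rats. One of them, without the 3 arrays of lowest correlation, was chosen after seeing the data. The genes, lists and tests were chosen with earlier results of these data known. Any of the 36 genes could be named. From the other lists, all called genes were named where 6 or fewer were called, and otherwise the 6 with the smallest p, plus Foxm1, Mybl2, E2f1, Cdkn1a, Ccnd1, Mcm2, Mcm6 and Pcna. Promoter motifs were exact letter matches.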

Additional observations from a re-analysis of the deposited data

Results flagged for a closer look

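Second probe sets of 3 mitosis genes, which the comparisons above do not use, rose at 611 mg/kg in a limma fit over all probe sets. For Ccnb1 the difference from vehicle was 1.40 (adjusted p = 0.00902), for Kif23 0.92 (adjusted p = 0.000593), and for Mad2l1 0.65 and 0.49 in its other probe sets. In that fit the brightest Ccnb1 probe set was not called (adjusted p = 0.0563). Cdc20 in vehicle rat 4 (6.53) lay farther from the other vehicle rats than Dixon's 95% limit for 5 values allows. It was the 1 such value among 40 genes examined, and chance gives about 1 in 20.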

How the results depend on the processing

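All 25 mitosis genes called at 611 mg/kg kept their direction under every setting run, and 13 kept the call under each. Leaving out 1 rat gave 17 to 27 calls at 611 mg/kg, 3 to 19 for 611 against 305.5 mg/kg and 2 to 12 for the rank slope, and 0 to 0 for the lower doses. The medians ran from 0.64 to 1.01 at 611, -0.21 to -0.0541 at 76.5, -0.24 to -0.06 at 153 and -0.23 to -0.06 at 305.5 mg/kg. Without the dimmest 40% of genes, which kept 9 of the 32, calls were 8 at 611 mg/kg and 6 on the step. Step counts were 27 with array weights, 4 with the compared groups alone, 8 with the GAPDH covariate and 5 at adjusted p under 0.01. Rank counts were 22 with dose in mg/kg, 3 without the 3 arrays of lowest correlation, 0 without the 611 mg/kg group and 0 at adjusted p under 0.01. Array weights called 3 genes lower at 76.5 mg/kg. Except where fewer genes or rats entered, the cause was not tested.

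With the replicate number as a block, 13 mitosis genes were called at 611 mg/kg and 1 on the rank slope, with medians of -0.27, -0.30 and -0.32 at the 3 lower doses. Deviations of 30 same-numbered pairs correlated at -0.26 to 0.40. Differently numbered pairs were not set beside them, so whether equal numbers pair rats cannot be told from these values.

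Over all genes, called counts at 611 mg/kg ran from 215 with the block to 1206 with array weights (higher; 716 as reported) and from 169 without rat 2 to 678 with array weights (lower; 344). On the step they ran from 10 to 259 higher and 1 to 74 lower. At the lower doses they ran from 4 to 363 (76.5), 18 to 252 (153) and 49 to 438 (305.5) higher, and from 2 to 333, 11 to 146 and 86 to 676 lower. On the rank slope they ran from 111 to 974 higher and 170 to 675 lower.

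Signs turned for uncalled genes. Leaving out 1 rat, Plk1 ran from -0.0941 to 0.39 against vehicle and -0.042 to 0.44 on the step, Kif23 from -0.14 to 0.23 on the step (-0.0068 and -0.0055 without 305.5 mg/kg rat 3 and 611 mg/kg rat 1), Foxm1 from -0.0319 to 0.30, E2f1 from -0.0891 to 0.17 (-0.0043 without vehicle rat 1) and Ccnd1 from -0.31 to 0.0915 (0.0192 without vehicle rat 2), the last 3 against vehicle. Kif23 was 0.42 with the mean of its probe sets and 0.0442 with the block against vehicle, and -0.0306 on the step with median centring. Ccnd1 was 0.0155 with the GAPDH covariate and 0.0915 without the 3 arrays of lowest correlation. Signals under log2 6, held by 14 of the 32 genes in vehicle rats, limit how large a difference can be read.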
